A study of Mus musculus with 11 samples.

Results

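Genes of the amino acid and serine response that is governed by the transcription factor ATF4 were followed across 3 states of cultured mouse macrophages. The set holds 36 named genes, and 35 of them were among the 18193 genes measured. Pycr1, which encodes a proline synthesis enzyme, had no probe set annotated with a single gene symbol and has no value. The set was picked because Trib3, Phgdh and Asns were higher in M2a cells, so the values of M2a cells against either other group are given as a description, without a test. Among a gene's probe sets, the one brightest on average across the 11 arrays stands for it.

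Marrow cells of C57BL/6 mice, aged 7 weeks, were kept in culture for 7 days. The macrophages were then sorted by their surface protein F4/80 and gave total RNA for 1 array each sample. The 5 M0 samples had been grown without cytokines, the 3 M1 samples with IFN-g and, over the last 24 h, LPS, and the 3 M2a samples with IL-4 plus IL-13. All 3 groups, the M0 controls included, came from Rag1-/- mice, which lack mature T and B cells. The replicates are numbered, but no label ties them to separate mice. A p-value here therefore reflects the spread among these samples alone, and that spread may be technical.

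ATF4 is the main effector of the integrated stress response: kinases that sense amino acid shortage, unfolded protein in the endoplasmic reticulum, viral RNA or heme shortage phosphorylate the translation factor eIF2, which slows protein synthesis in general while the Atf4 transcript is translated more. The ATF4 protein then pairs with C/EBP family partners on composite C/EBP-ATF elements and raises genes for amino acid synthesis, amino acid uptake and the charging of tRNA. Because much of this control acts on translation, the level of Atf4 mRNA is not a measure of ATF4 protein.

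The core letters of that element, TGATGNAA, were searched on both strands of promoter windows of 300 bases, reaching from 250 bases before to 50 bases after each annotated start site (RefSeq, GRCm38.p6). Of the 36 genes, 30 had a window, and the other 6 (Eif4ebp1, Slc1a5, Aldh1l2, Cth, Slc7a3 and Slc7a5) did not. The letters were found in 9 of 34 windows of the set (26.5%) and in 1304 of all 32851 windows (3.97%). The exact form TGATGCAA was in 7 windows of the set and in 0.895% of all windows. Slc7a11 held 2 matches, as did 0.07% of all windows at that number or more. A match describes letters and is not evidence of a bound site. The sequences of 7 genes with a match are printed because they share these letters while their transcripts varied differently across the 3 states. Trib3, Chac1, Atf3 and Asns were highest in M2a, and Slc7a11 and Nupr1 were highest in M1. Slc1a4 was lower in both than in M0 by the probe set used, but its other probe sets did not share that direction. They gave 0.02 and 0.0 in M1 and 0.87 and 0.32 in M2a. Each sequence runs 5′ to 3′ on the gene's strand, and the capitals mark the match. The first 5 are the 250 bases before the start site, and the last 2 are stretches of 30 bases around the match.
Asns (chr6:7693210-7693459, minus strand): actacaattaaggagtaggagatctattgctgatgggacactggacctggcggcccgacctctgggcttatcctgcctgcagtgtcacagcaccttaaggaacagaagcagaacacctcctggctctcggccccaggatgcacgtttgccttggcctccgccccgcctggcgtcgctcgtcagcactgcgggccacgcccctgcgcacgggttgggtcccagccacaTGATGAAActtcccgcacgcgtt
Chac1 (chr2:119350992-119351241, plus strand): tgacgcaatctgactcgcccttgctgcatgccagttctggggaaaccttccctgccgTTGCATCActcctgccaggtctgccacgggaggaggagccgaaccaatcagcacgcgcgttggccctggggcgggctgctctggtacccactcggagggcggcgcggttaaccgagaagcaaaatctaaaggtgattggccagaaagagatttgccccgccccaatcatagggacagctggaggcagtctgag
Atf3 (chr1:191183334-191183583, minus strand): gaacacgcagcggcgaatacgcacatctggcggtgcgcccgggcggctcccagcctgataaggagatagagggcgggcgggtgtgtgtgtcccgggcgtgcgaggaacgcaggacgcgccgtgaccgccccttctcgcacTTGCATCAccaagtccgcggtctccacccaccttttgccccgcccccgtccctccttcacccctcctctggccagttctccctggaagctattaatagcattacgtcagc
Nupr1 (chr7:126625471-126625720, minus strand): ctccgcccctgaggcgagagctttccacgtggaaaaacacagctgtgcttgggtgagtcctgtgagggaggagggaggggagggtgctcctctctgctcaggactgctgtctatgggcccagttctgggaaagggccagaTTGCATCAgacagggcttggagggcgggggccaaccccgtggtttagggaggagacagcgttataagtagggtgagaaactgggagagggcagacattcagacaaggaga
Slc7a11 (chr3:50443614-50443863, minus strand): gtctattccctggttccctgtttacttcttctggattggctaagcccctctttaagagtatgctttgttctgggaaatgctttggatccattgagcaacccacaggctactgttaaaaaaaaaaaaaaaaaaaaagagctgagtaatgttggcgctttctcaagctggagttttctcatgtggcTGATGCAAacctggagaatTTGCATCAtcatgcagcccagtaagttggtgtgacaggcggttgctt
Trib3 (chr2:152344028-152344057, minus strand): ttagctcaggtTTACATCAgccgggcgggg
Slc1a4 (chr11:20332699-20332728, minus strand): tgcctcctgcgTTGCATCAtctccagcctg

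Counted from the start site, with negative positions before it, the match began at -23 in Asns, -110 in both Atf3 and Nupr1, -193 in Chac1, -66 and -47 in Slc7a11 and -4 in Slc1a4, whereas that of Trib3 began at 15, after the start site. Fgf21 and Pycr1 held a match at -139 and -103.

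The arrays of a group correlated with each other at r = 0.956 to 0.995 in M0, 0.997 to 0.998 in M1 and 0.996 to 0.998 in M2a over all genes, and the median SD of a gene was 0.24, 0.08 and 0.09 log2 units in these groups. The mean of M0 arrays 1 to 3 equalled that of M0 arrays 4 and 5 on every probe set (largest difference 8.3e-05), so they hold less information on their own spread than their number implies, although the fit counts them as independent. The spiked hybridization controls averaged 11.15 ± 0.52 (SD, n = 5) in M0, 9.71 ± 0.06 (n = 3) in M1 and 9.86 ± 0.09 (n = 3) in M2a, without overlap between M0 and either other group. The spiked poly-A controls averaged 8.86, 5.32 and 6.02 and the 18S RNA probe sets 9.25, 6.25 and 8.56 in M0, M1 and M2a. The 5' minus 3' signal difference, a sign of RNA quality, was -0.61 ± 0.47, 0.15 ± 0.02 and -0.57 ± 0.06 for actin and -0.37 ± 0.60, 0.57 ± 0.03 and -0.30 ± 0.04 for Gapdh, with M1 above every M0 array in both. Adgre1, which encodes F4/80, was at 10.78 to 11.59 in M0, 12.37 to 12.49 in M1 and 11.51 to 11.85 in M2a. The log2 of the summed level of 11 neutrophil-lineage markers was 15.73 to 16.71 in M0, 13.60 to 13.71 in M1 and 9.12 to 9.25 in M2a. By limma 10 of the 11 fell in M1 and all 11 in M2a, and the granule enzyme gene Mpo ran from 10.23 to 13.1 in M0, 3.78 to 4.12 in M1 and 4.74 to 4.79 in M2a. The same sum over 11 macrophage markers was 14.99 to 15.40, 15.70 to 15.71 and 14.65 to 14.74. In limma 5 of these 11 rose and 1 fell in M1, whereas 2 rose and 6 fell in M2a. Over all genes, 22.1% rose and 17.6% fell in M1, and 18.6% rose and 13.3% fell in M2a. Csf1r, for one, ran from 12.91 to 13.4 in M0, 13.45 to 13.48 in M1 and 11.69 to 12.19 in M2a. The sum over 12 mast cell, basophil and eosinophil markers was 12.33 to 13.72, 7.98 to 8.04 and 8.72 to 8.81. That over 12 stroma and endothelium markers was 10.31 to 11.45, 9.49 to 9.59 and 8.33 to 8.52. For 19 cell cycle genes it was 13.22 to 13.78, 12.34 to 12.43 and 12.58 to 12.79. The part of these differences, and of the other cells in the M0 sort, in the values below was not tested, and in these bulk samples fewer cells of a type and less RNA per cell cannot be told apart.

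In M2a cells the set stood mostly above M0. At least a 2-fold difference without overlap of the arrays was seen upward for 15 of 35 genes (42.9%), where 4.39% of all 18193 genes met the same rule, and downward for 1 gene, Ddit4 (4.9% of all genes). The 15 included the serine synthesis enzymes Phgdh, Psat1 and Psph, the asparagine synthetase Asns, and the regulators Trib3, Atf3, Atf5, Ddit3 and Nupr1. Without regard to size, 26 genes had all M2a arrays above all M0 arrays (74.3%, against 21.3% of all genes). The median difference of the 35 genes was 0.82 on the log2 scale, beside 0.07 over all genes, with single genes from -1.26 to 3.62. With the mean of the hybridization controls as a covariate the count was 14, but of other genes in part: Atf3 (0.63), Nupr1 (0.97), Psph (0.54) and Xpot (0.34) no longer reached 2-fold, Aldh18a1 (1.08), Sesn2 (1.57) and Fgf21 (1.11) did, Trib3 was at 2.23, Cebpg at 0.30, Slc7a11 at 0.27, Slc3a2 at 0.14, and Slc1a4 turned to 0.11. Nothing is drawn from these shares, since the choice of the set used this contrast.

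In M1 cells, which did not serve to choose the set although M1 is compared with the same M0 arrays, 16 of 35 genes fell (45.7%, where 17.6% of all genes fell) and 8 rose (22.9%, where 22.1% of all genes rose), by limma at an adjusted p under 0.05. The share that rose was thus near that of all genes. At least a 2-fold difference without overlap was seen for 3 higher genes (8.57%, beside 6.12% of all genes) and 6 lower genes (17.1%, beside 6.35%). Without regard to size, 9 genes had all M1 arrays above all M0 arrays (25.7%, against 22.7% of all genes) and 16 had them below (45.7%, against 17.4%). The genes that fell included Slc38a2, Psat1, Asns, Atf5 and Shmt2, and those that rose most were Nupr1, Slc7a11 and Slc3a2. The median difference was -0.42 beside 0.06 over all genes. The number that rose was 5 without any one of M1 arrays 1, 2 and 3. When the mean of the hybridization controls, which does not overlap between M0 and M1, entered the fit as a covariate, 5 genes were higher and 10 lower: 13 of the 24 calls were lost (Aldh18a1, Atf5, Ddit3, Ddit4, Eif4ebp1, Mthfd1l, Phgdh, Ppp1r15a, Slc1a4, Slc1a5, Slc3a2, Slc6a9 and Slc7a5), and Trib3 (-1.78), Atf3 (-1.06), Xpot (-0.72) and Fgf21 (1.23) passed, while Sesn2 turned to 0.39. The actin 5'-3' covariate ended 6 of the 24 calls: Ddit3 (-0.33), Mthfd1l (0.17), Phgdh (-0.45), Slc1a4 (-0.38), Slc6a9 (0.34) and Slc7a5 (-0.55).

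**Figure D1:**
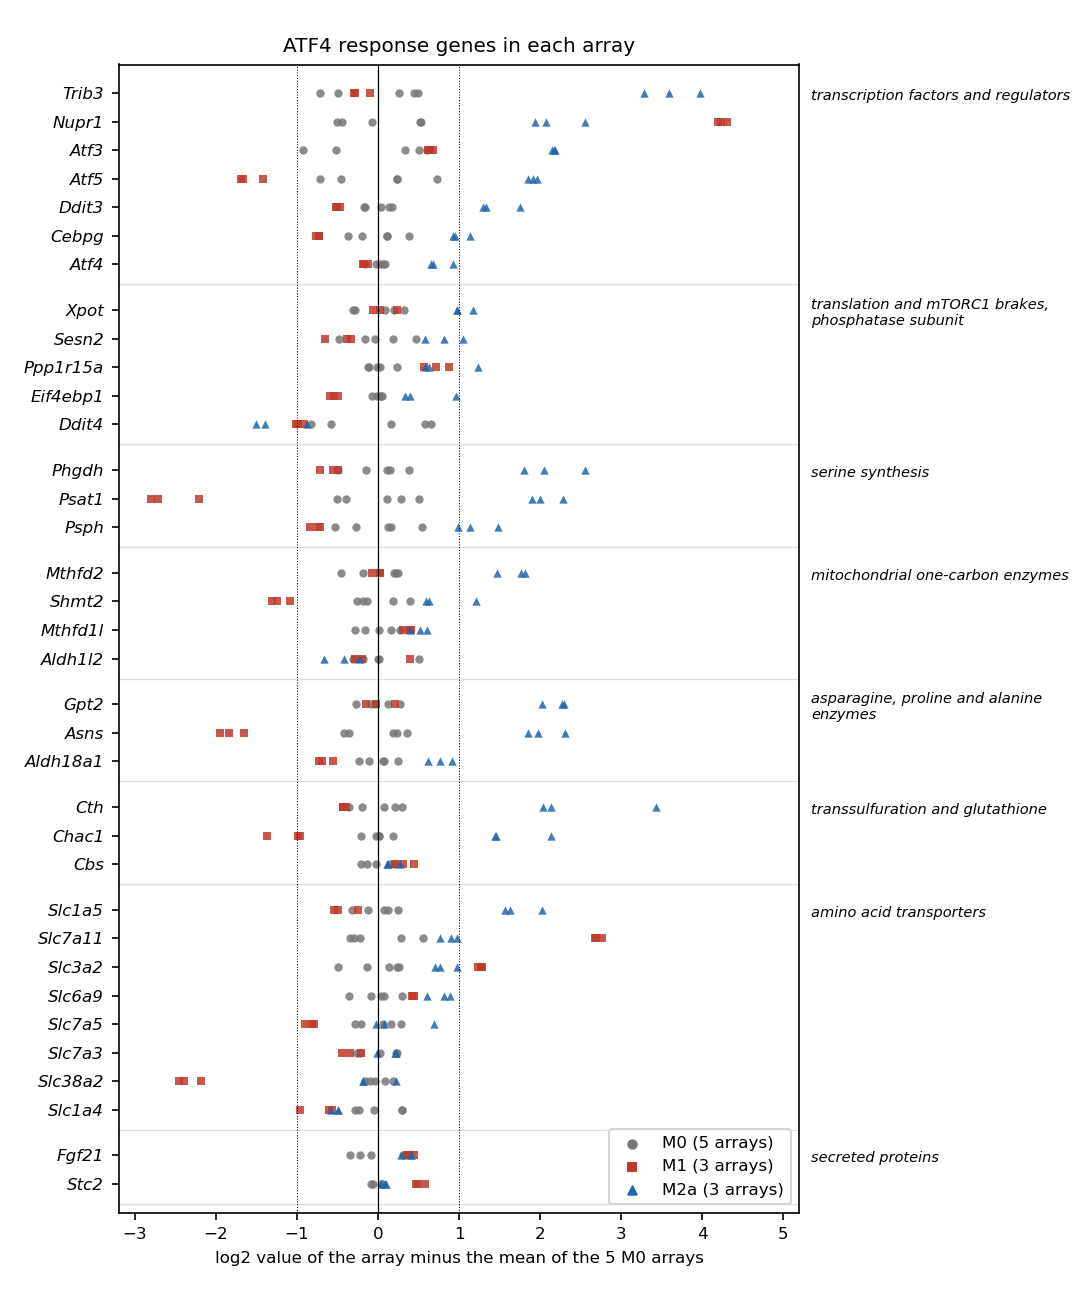
Log2 value of each array minus the mean of the 5 M0 arrays (horizontal axis, log2 units) for the 35 measured genes, grouped by role. Circles are M0, squares M1 and triangles M2a arrays, and the dotted lines mark a 2-fold difference. The M2a triangles of 15 genes lie to the right with a mean at least 2-fold above M0, while the M1 squares of Psat1, Asns, Slc38a2 and Atf5 lie to the left.

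Among the transcription factors and regulators, Atf4 itself lay at 10.86 to 11.11 in M0, 10.84 to 10.90 in M1 and 11.68 to 11.95 in M2a. Its M2a arrays were above all other arrays by a mean of 0.76 log2 units over M0, which is 1.69-fold, and M1 differed from M0 by -0.15 ± 0.09 (SE; adjusted p = 0.21, limma). In M1 its 2 other probe sets gave differences of -0.51 and 0.52, so its probe sets did not share a sign there. Trib3, a pseudokinase that binds ATF4 and restrains its activity, read 5.38, 6.55, 6.36, 5.60 and 6.59 in M0, 6.00, 5.80 and 5.81 in M1, and 9.69, 9.38 and 10.08 in M2a. M0 and M1 overlapped (-0.22 ± 0.28, adjusted p = 0.55, limma), and every M2a array was far above both. The M1 difference passed without M0 arrays 1 and 4 (-0.63, adjusted p = 0.0053, limma). In the second probe set of Trib3 it was -0.41, with M0 at 6.13 to 6.62 and M1 at 5.88 to 6.09. Its difference of 3.62 between M2a and M0, a 12.3-fold higher level, was the largest of the set among the probe sets used, and its second probe set gave 2.45.

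Atf3, a stress-induced repressor and activator of the same family, read 8.99, 10.25, 10.52, 9.40 and 10.43 in M0, 10.54, 10.56 and 10.60 in M1, and 12.11, 12.09 and 12.07 in M2a. The M0 arrays spread over more than 1 log2 unit and the highest of them came close to M1, whereas M2a stood apart with a mean 2.17 above M0. M1 against M0 was 0.65 ± 0.30 (adjusted p = 0.11, limma). It passed without M0 array 5 (0.78, adjusted p = 0.049). Atf5, an ATF4 relative that is itself translated more under eIF2 phosphorylation, read 7.13, 7.83, 7.83, 8.32 and 6.87 in M0, 5.92, 5.90 and 6.17 in M1, and 9.50, 9.55 and 9.44 in M2a. The 3 groups did not overlap, with M1 lowest and M2a highest. Atf5 fell by 1.60 ± 0.27 on the log2 scale in M1 (3.02-fold lower, adjusted p = 0.0006, limma), and in M2a it was 1.90 above M0.

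Ddit3, which encodes CHOP, a C/EBP relative that promotes death under lasting stress, read 8.6, 8.81, 8.90, 8.94 and 8.61 in M0, 8.30, 8.26 and 8.25 in M1, and 10.10, 10.07 and 10.52 in M2a. The order was again M1, M0, M2a without overlap: it fell by 0.50 ± 0.12 in M1 (adjusted p = 0.0076, limma) and was 1.46 higher in M2a than in M0. The M2a difference was not shared by its second probe set, at 0.05. Cebpg, a C/EBP protein that pairs with ATF4, read 8.42, 8.73, 8.73, 8.25 and 9.0 in M0, 7.89, 7.85 and 7.89 in M1, and 9.57, 9.54 and 9.75 in M2a. Cebpg fell by 0.75 ± 0.15 in M1 (adjusted p = 0.0021, limma), and its M2a mean, 1.00 above M0, lay just short of the 2-fold line. Just inside that line was Xpot, at 1.04. The other probe sets of Cebpg gave smaller M2a differences, of 0.14 and 0.61.

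Nupr1, a small nuclear stress protein, departed from this order. It read 6.20, 7.18, 6.57, 6.14 and 7.17 in M0, 10.96, 10.89 and 10.85 in M1, and 8.72, 8.59 and 9.21 in M2a. M1 was highest and M2a lay between M1 and M0, with no overlap. Nupr1 rose in M1 by 4.25 ± 0.25 (19.0-fold, adjusted p = 1.6e-07, limma), the largest difference of the set in that comparison, and was 2.19 above M0 in M2a. Its second probe set gave 3.83 and 1.95.

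**Figure D2:**
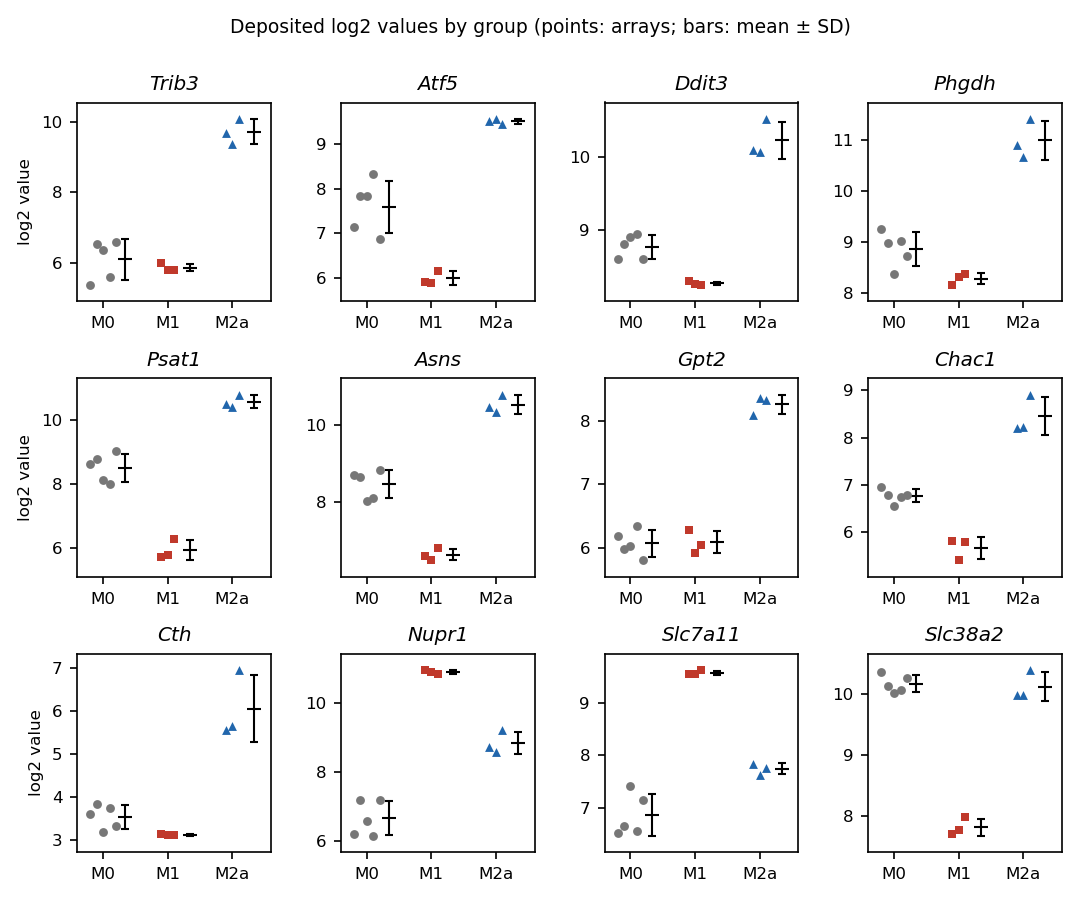
Deposited log2 values (vertical axis; scale differs by panel) of 12 genes of the set in M0 (5 arrays), M1 (3 arrays) and M2a (3 arrays), with the mean ± SD beside the points. Trib3, Atf5, Ddit3, Phgdh, Psat1, Asns, Gpt2, Chac1 and Cth are highest in M2a, Nupr1 and Slc7a11 are highest in M1, and Slc38a2 is lowest in M1 with M0 and M2a overlapping.

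The 3 enzymes that make serine from a glycolytic intermediate were all higher in M2a and all fell in M1. Phgdh, which catalyses the first step, read 9.25, 8.98, 8.38, 9.02 and 8.72 in M0, 8.16, 8.32 and 8.37 in M1, and 10.92, 10.67 and 11.42 in M2a. The lowest M0 array was within 0.1 of the highest M1 array, while M2a lay 2.13 above M0, a 4.38-fold higher level. The fall in M1 (-0.59 ± 0.20, adjusted p = 0.036, limma) lost its call without any one of M0 arrays 1, 2 and 4, M1 arrays 1, 2 and 3 or M2a array 1 (-0.63 to -0.50, adjusted p = 0.051 to 0.12). The other 3 Phgdh probe sets gave larger M1 differences, of -1.27, -3.44 and -3.51, and M2a differences of 1.31 to 1.95. All 4 are of the _x_at type, which can bind related transcripts. Psat1, the aminotransferase of the middle step, read 8.62, 8.79, 8.12, 8.0 and 9.02 in M0, 5.71, 5.80 and 6.30 in M1, and 10.51, 10.41 and 10.79 in M2a. The groups were well apart on both sides of M0: it fell by 2.57 ± 0.23 in M1 (5.95-fold lower, adjusted p = 5.1e-06, limma), was 2.06 higher in M2a than in M0, and was 4.63 higher in M2a than in M1. Psph, the phosphatase of the last step, read 7.49, 7.53, 7.10, 6.84 and 7.91 in M0, 6.65, 6.63 and 6.53 in M1, and 8.51, 8.36 and 8.85 in M2a. Psph fell by 0.77 ± 0.21 in M1 (adjusted p = 0.012, limma) and was 1.20 higher in M2a.

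Of the mitochondrial enzymes that move one-carbon units from serine, Shmt2, which splits serine to glycine, read 7.31, 7.84, 7.19, 7.63 and 7.26 in M0, 6.14, 6.36 and 6.20 in M1, and 8.04, 8.08 and 8.66 in M2a. Shmt2 fell by 1.21 ± 0.18 in M1 (adjusted p = 0.00025, limma), and its M2a mean was 0.82 above M0. Its other 3 probe sets gave M1 differences of -0.21, -0.32 and 0.08, and the call was lost when the _x_at and _s_at probe sets were left out (-0.21, adjusted p = 0.41, limma). Mthfd2, the dehydrogenase and cyclohydrolase that follows, read 9.15, 9.18, 8.47, 8.74 and 9.13 in M0, 8.86, 8.96 and 8.95 in M1, and 10.69, 10.40 and 10.75 in M2a. M0 and M1 overlapped (-0.01 ± 0.17, adjusted p = 0.97, limma), and M2a was 1.68 above M0. Mthfd1l, which releases formate, lay at 6.77 to 7.32 in M0, 7.36 to 7.46 in M1 and 7.45 to 7.65 in M2a. Its rise in M1 (0.37 ± 0.12, adjusted p = 0.035, limma) lost its call without any one of M0 arrays 3 and 4, M1 arrays 1, 2 and 3 or M2a array 1 (0.30 to 0.40, adjusted p = 0.051 to 0.11). Aldh1l2, which oxidises formyl folate in mitochondria, overlapped between all groups, at 3.94 to 4.75, 3.97 to 4.65 and 3.58 to 4.01, and its M1 difference was -0.03 ± 0.20 (adjusted p = 0.91, limma).

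Asns, which makes asparagine from aspartate and is a classical ATF4 target, read 8.71, 8.65, 8.05, 8.11 and 8.83 in M0, 6.63, 6.52 and 6.82 in M1, and 10.45, 10.32 and 10.78 in M2a. Like Psat1 it was far from M0 on both sides: it fell by 1.81 ± 0.19 in M1 (3.51-fold lower, adjusted p = 1.8e-05, limma) and was 2.04 higher in M2a. Its second probe set gave -2.34 and 2.40. Gpt2, the mitochondrial alanine aminotransferase, read 6.19, 5.98, 6.03, 6.34 and 5.80 in M0, 6.28, 5.92 and 6.05 in M1, and 8.10, 8.37 and 8.34 in M2a. M1 overlapped M0 (0.02 ± 0.13, adjusted p = 0.93, limma), and M2a was 2.20 higher, with 2.52, 3.22 and 3.71 in its other 3 probe sets. Aldh18a1, which begins proline synthesis from glutamate, read 6.87, 6.88, 6.70, 7.06 and 6.57 in M0, 6.26, 6.12 and 6.08 in M1, and 7.57, 7.43 and 7.72 in M2a. Aldh18a1 fell by 0.66 ± 0.12 in M1 (adjusted p = 0.00098, limma) and was 0.76 higher in M2a. With _x_at and _s_at probe sets left out, which can bind related transcripts, its M1 difference was 0.01.

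In the path from homocysteine to cysteine, Cth, the lyase that releases cysteine, read 3.60, 3.83, 3.17, 3.74 and 3.33 in M0, 3.14, 3.10 and 3.10 in M1, and 5.57, 5.66 and 6.96 in M2a. The M0 and M1 values are among the lowest of the set and M2a was 2.53 higher than M0. M2a array 3 was 1.34 above the mean of the other 2, and without it the difference was 2.08. M1 differed from M0 by -0.42 ± 0.28 (adjusted p = 0.25, limma), which passed without M2a array 3 at the same difference (adjusted p = 0.046). Cbs, which condenses homocysteine with serine, lay at 4.96 to 5.38, 5.38 to 5.62 and 5.28 to 5.44. Its rise in M1 (0.32 ± 0.11, adjusted p = 0.041, limma) was lost without any one of M0 arrays 2, 3 and 5, M1 arrays 1, 2 and 3 or M2a arrays 1, 2 and 3 (0.26 to 0.38, adjusted p = 0.054 to 0.17), and its second probe set gave -0.12. Chac1, an enzyme that breaks down glutathione, read 6.96, 6.78, 6.56, 6.75 and 6.78 in M0, 5.81, 5.40 and 5.78 in M1, and 8.21, 8.23 and 8.91 in M2a. The groups did not overlap: Chac1 fell by 1.10 ± 0.17 in M1 (adjusted p = 0.00033, limma) and was 1.69 higher in M2a.

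The 8 amino acid transporters did not share 1 order. Slc7a11, the cystine importer of the system that exchanges cystine for glutamate, read 6.51, 6.64, 7.41, 6.56 and 7.15 in M0, 9.55, 9.54 and 9.62 in M1, and 7.83, 7.62 and 7.76 in M2a. It rose in M1 by 2.72 ± 0.19 (6.58-fold, adjusted p = 6.9e-07, limma) and was 0.88 above M0 in M2a, where its second probe set gave -0.28. Slc3a2, the heavy chain that carries Slc7a11 and Slc7a5 to the surface, read 10.22, 10.97, 10.94, 10.57 and 10.85 in M0, 11.95, 11.99 and 11.98 in M1, and 11.47, 11.41 and 11.69 in M2a. It rose in M1 by 1.26 ± 0.16 (adjusted p = 7.3e-05, limma) and was 0.81 above M0 in M2a, so both chains of the cystine exchanger were highest in M1. Slc7a5, the partner of Slc3a2 for large neutral amino acids, read 7.29, 7.39, 7.02, 7.51 and 6.95 in M0, 6.33, 6.41 and 6.44 in M1, and 7.30, 7.21 and 7.92 in M2a. Slc7a5 fell by 0.84 ± 0.17 in M1 (adjusted p = 0.0025, limma), while M2a overlapped M0, at a difference of 0.25 and of 0.03 without M2a array 3.

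Slc38a2, a sodium-coupled importer of small neutral amino acids, read 10.36, 10.13, 10.01, 10.07 and 10.26 in M0, 7.71, 7.78 and 7.98 in M1, and 9.98, 9.98 and 10.39 in M2a. Slc38a2 fell by 2.34 ± 0.13 in M1 (5.08-fold lower, adjusted p = 7.3e-08, limma), and M2a overlapped M0 (-0.05). In its other probe sets the M1 differences were smaller, at -0.83 and -0.75, and the M2a differences were -0.2 and -0.49. Slc1a5, a glutamine transporter, read 6.49, 6.67, 6.10, 6.30 and 6.54 in M0, 5.93, 5.88 and 6.17 in M1, and 7.99, 8.05 and 8.44 in M2a. It was 1.74 above M0 in M2a, the largest M2a difference among the 8 transporters, with 0.3 in its second probe set. Its fall in M1 (-0.43 ± 0.15, adjusted p = 0.039, limma) was lost without any one of M0 arrays 1, 2 and 5, M1 arrays 1 and 2 or M2a array 2 (-0.43 to -0.37, adjusted p = 0.052 to 0.14).

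The other 3 transporters varied less. Slc1a4, which carries alanine, serine and cysteine, lay at 5.79 to 6.38 in M0, 5.12 to 5.51 in M1 and 5.50 to 5.59 in M2a. It fell by 0.72 ± 0.16 in M1 (adjusted p = 0.0036, limma) and its M2a difference from M0 was -0.52, but its other 2 probe sets gave 0.87 and 0.32 for M2a and 0.02 and 0.0 for M1, and the M1 call was lost with the mean of the probe sets (-0.23, adjusted p = 0.086, limma). Slc6a9, a glycine transporter, lay at 5.73 to 6.39, 6.51 to 6.53 and 6.69 to 6.98. Its rise in M1 (0.43 ± 0.13, adjusted p = 0.024, limma) was lost without any one of M1 arrays 1, 2 and 3 (0.43 to 0.44, adjusted p = 0.065 to 0.072). Slc7a3, an importer of cationic amino acids, lay at 4.85 to 5.34, 4.67 to 4.90 and 5.1 to 5.33, and its M1 difference of -0.33 ± 0.13 (adjusted p = 0.072, limma) passed without M0 array 1 or 5 (-0.40 to -0.39, adjusted p = 0.031 to 0.033).

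Among the genes that slow translation or mTORC1 signalling, Ddit4 was the only gene of the 35 at least 2-fold lower in M2a without overlap. Ddit4, which encodes an mTORC1 inhibitor also known as REDD1, read 8.42, 7.92, 6.93, 7.18 and 8.34 in M0, 6.75, 6.77 and 6.85 in M1, and 6.25, 6.36 and 6.88 in M2a. The M0 arrays were widely spread and the lowest of them was within 0.1 of the highest M1 and M2a arrays. The M2a difference from M0 was -1.26, and the fall in M1 (-0.97 ± 0.32, adjusted p = 0.031, limma) was lost without any one of M0 arrays 1 and 2 or M1 arrays 1, 2 and 3 (-1.0 to -0.80, adjusted p = 0.056 to 0.09). Sesn2, a leucine sensor that restrains mTORC1, read 7.21, 6.86, 6.98, 7.49 and 6.54 in M0, 6.64, 6.36 and 6.69 in M1, and 7.60, 7.84 and 8.07 in M2a. M2a was 0.82 above M0, and M1 differed by -0.45 ± 0.19 (adjusted p = 0.083, limma), which passed without M0 array 5 (-0.57, adjusted p = 0.015) and was 0.39 with the hybridization covariate. Eif4ebp1, the repressor of cap-dependent translation, read 9.60, 9.59, 9.48, 9.54 and 9.57 in M0, 8.96, 9.01 and 9.05 in M1, and 9.94, 9.88 and 10.51 in M2a. Eif4ebp1 fell by 0.55 ± 0.13 in M1 (adjusted p = 0.0057, limma) and was 0.55 above M0 in M2a.

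Ppp1r15a, the phosphatase subunit also known as GADD34 that reverses eIF2 phosphorylation, lay at 7.95 to 8.31 in M0, 8.64 to 8.95 in M1 and 8.65 to 9.31 in M2a. It rose in M1 by 0.72 ± 0.15 (adjusted p = 0.0033, limma), was 0.81 above M0 in M2a, and overlapped between M1 and M2a. Xpot, which exports tRNA from the nucleus, read 8.64, 9.12, 9.01, 8.61 and 9.24 in M0, 8.86, 8.95 and 9.15 in M1, and 9.89, 9.90 and 10.09 in M2a. M1 overlapped M0 (0.06 ± 0.15, adjusted p = 0.77, limma) and M2a was 1.04 higher, or 0.97 without M2a array 3. The secreted hormones Stc2 and Fgf21 differed little in M2a. Stc2, a regulator of growth and calcium handling, lay at 5.48 to 5.62, 6.04 to 6.15 and 5.61 to 5.67 and rose in M1 by 0.51 ± 0.08 (adjusted p = 0.00032, limma). Its probe sets did not share a sign in M1, and the call was lost with their mean (0.11, adjusted p = 0.36, limma). Fgf21, a metabolic hormone known from liver, lay at 4.19 to 4.88, 4.90 to 4.98 and 4.82 to 4.95, and its M1 difference was 0.40 ± 0.16 (adjusted p = 0.062, limma). It passed without M0 array 1 or 4 (0.48, adjusted p = 0.017 to 0.025).

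M2a was compared with M1 directly, which leaves out the M0 arrays, but the M2a arrays also served to choose the set. M1 and M2a did not overlap in the 5' minus 3' difference of actin (0.13 to 0.18 and -0.63 to -0.53). Nor did they in that of Gapdh (0.55 to 0.61 and -0.35 to -0.27) or in 18S RNA (6.15 to 6.3 and 8.51 to 8.64). The part of these control differences in the values below was not tested. At least 2-fold differences without overlap were seen upward in M2a for 20 of 35 genes (57.1%, where 5.52% of all genes met the rule) and downward for 2, Nupr1 and Slc7a11 (5.67% of all genes). Without regard to size, 24 genes had all M2a arrays above all M1 arrays (68.6%, against 33.9% of all genes) and 4 had them below (11.4%, against 30.7%): Nupr1, Slc7a11, Slc3a2 and Stc2. The median difference was 1.27 log2 units beside 0.02 over all genes. The widest gaps were in Psat1 (4.63), Asns (3.86), Trib3 (3.85) and Atf5 (3.50). Cth (2.95), Chac1 (2.79) and Phgdh (2.72) followed, and Slc38a2 (2.29), whose M2a arrays overlapped those of M0, was among the 20. The other probe sets of Slc38a2 stayed below 2-fold, at 0.63 and 0.26. In the other direction, the M2a minus M1 difference was -2.06 for Nupr1 and -1.84 for Slc7a11.

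Within M2a, array 3 was the highest of the 3 arrays for 25 of 35 genes (71.4%), including 12 of the 15 that were at least 2-fold higher than M0, where it was the highest for 34.2% of all genes. It exceeded the mean of the other 2 M2a arrays by a median of 0.26 log2 units over the 35 genes, beside -0.01 over all genes. Cth (1.34), Chac1 (0.69), Slc7a5 (0.66), Ppp1r15a (0.64) and Phgdh (0.63) showed the largest excess, whereas Atf3 (-0.03) and Atf5 (-0.08) were level. Without that array the M2a differences were 3.44 for Trib3, 1.92 for Phgdh, 1.91 for Asns and 1.46 for Chac1.

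Of the 35 genes, 22 had several probe sets. All probe sets of a gene had the same sign in 13 of 22 for M1 and in 19 of 22 for M2a. The exceptions in M2a were Slc1a4, Slc7a11 and Xpot. By their mean over all arrays, 28 genes lay above the median gene, and Cth, Cbs, Aldh1l2, Slc7a3, Slc1a4, Stc2 and Fgf21 lay below it.

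**Figure D3:**
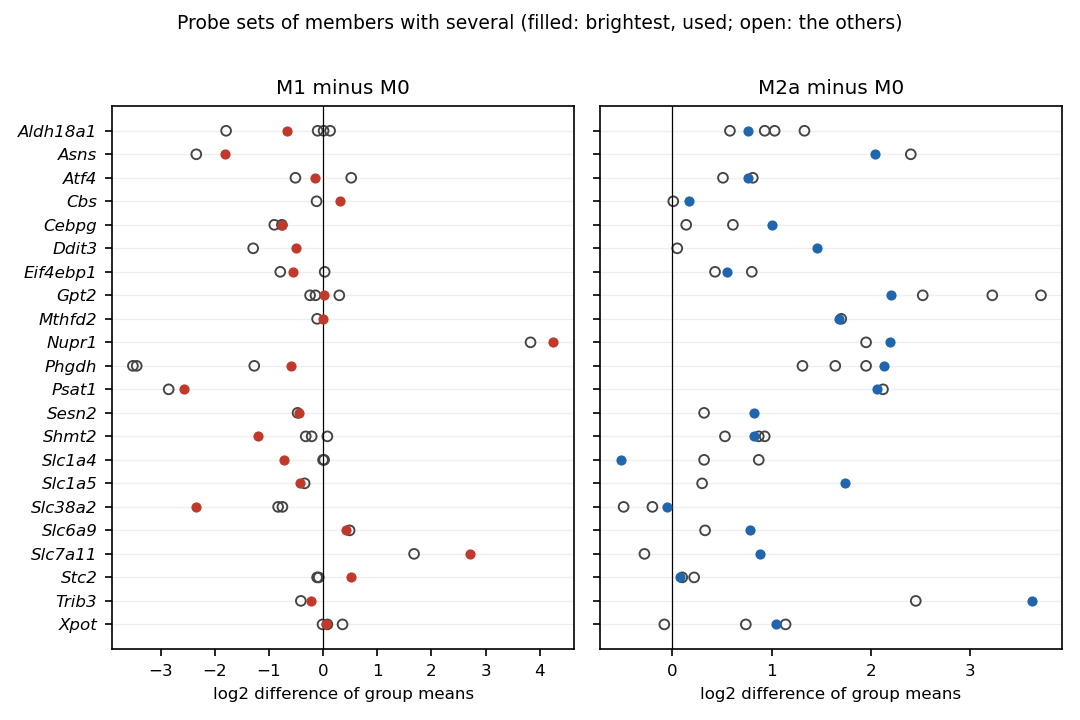
Log2 difference of group means (horizontal axes) for each probe set of the 22 genes of the set that have several, in M1 (left) and M2a (right) against M0. Filled points are the probe set with the highest mean, which the text uses, and open points are the others. In M1 the open points of Phgdh reach -3.51 while the filled point is at -0.59, and in M2a those of Gpt2 reach 3.71.

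Genes of the same pathways outside the set, taken from 9 lists that hold none of its members, were tested by limma in both comparisons, which share the M0 arrays. The charging enzymes of tRNA, the aminoacyl-tRNA synthetases, were the list with the largest median difference in M2a: 13 of 18 rose and 1 fell (where 18.6% of all genes rose and 13.3% fell), with a median of 0.99. Rars, the arginine enzyme, rose by 2.27 ± 0.22 (adjusted p = 1.3e-05, limma) and Eprs, which charges glutamate and proline, by 1.70 ± 0.15 (adjusted p = 5.7e-06, limma). In M1, 5 rose and 3 fell (27.8% and 16.7%, beside 22.1% and 17.6% of all genes), at a median of 0.07. Wars, the tryptophan enzyme known to be induced by interferon, rose by 1.25 ± 0.13 (adjusted p = 1.4e-05, limma), and Hars, the histidine enzyme, fell by 0.99 ± 0.10 (adjusted p = 1.4e-05, limma). The M1 split was 2 against 7 with quantile normalization, and 3 rose without any one of M1 arrays 1, 2 and 3. Under the hybridization covariate 7 rose in M2a, and in M1 1 rose and 9 fell. Mitochondrial stress relay genes, which include proteases and chaperones of mitochondria, rose in 5 of 8 cases in both comparisons (62.5%, beside 22.1% of all genes in M1 and 18.6% in M2a). In limma 0 of them fell in either comparison, also at an unadjusted p under 0.05, with medians of 0.67 in M1 and 0.64 in M2a. With the hybridization covariate, however, 1 was higher and 3 lower in M1 and 1 higher and 1 lower in M2a, and with the actin covariate 1 was higher in M1. In M1 the heat shock protein gene Hspd1 rose by 0.85 ± 0.19 (adjusted p = 0.0041, limma) and the protease gene Htra2 by 0.81 ± 0.08 (adjusted p = 1.6e-05, limma). Hspd1 was at -0.20 with the hybridization covariate and lost its call with the actin covariate (0.28, adjusted p = 0.19, limma). In M2a the mitochondrial chaperone gene Hspa9 rose by 1.49 ± 0.25 (adjusted p = 0.00084, limma) and the protease gene Lonp1 by 1.02 ± 0.13 (adjusted p = 1e-04, limma); the Hspa9 call was lost with the hybridization covariate (0.24).

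Genes of the unfolded protein response of the endoplasmic reticulum, another arm of stress signalling, went the other way between the groups in their counts. In M1, 14 of 20 rose (70%) and 1 fell (5%), at a median of 0.63, where 22.1% of all genes rose and 17.6% fell. In M2a, 2 rose (10%) and 7 fell (35%), at a median of -0.31, where 18.6% of all genes rose and 13.3% fell. The number that fell in M2a was 11 without M0 array 4 and 4 without M2a array 3. With the hybridization covariate 2 rose and 3 fell in M1 and 16 fell in M2a, and with the actin covariate 6 rose in M1 and 11 fell in M2a. Manf, a secreted protein of the endoplasmic reticulum, rose in M1 by 1.41 ± 0.20 (adjusted p = 0.00015, limma) and fell by 0.76 ± 0.20 in M2a (adjusted p = 0.011, limma), the latter not without M2a array 3 (-0.67, adjusted p = 0.06), and the former not with the hybridization covariate (0.49). Creld2, another of its secreted proteins, rose in M1 by 2.39 ± 0.27 (adjusted p = 3.1e-05, limma), and Sel1l, which serves the disposal of misfolded proteins, rose in M2a by 0.91 ± 0.12 (adjusted p = 0.00011, limma). Of the eIF2 kinases, eIF2 and eIF2B subunits, 6 of 14 rose (42.9%) and 1 fell (7.14%) in M1, and 5 rose (35.7%) and 2 fell (14.3%) in M2a. The split turned over with the hybridization covariate, to 2 higher and 5 lower in M1 and 6 lower in M2a, where the 5 rises lost their calls. Eif2ak2, the kinase PKR that senses double-stranded RNA and is known to be induced by interferon, rose in M1 by 1.17 ± 0.11 (adjusted p = 5.9e-06, limma), and Eif2ak3, the kinase PERK of the endoplasmic reticulum, fell by 0.84 ± 0.19 in M2a (adjusted p = 0.0057, limma). Impact, which restrains the amino acid sensing kinase GCN2, rose in M1 by 1.34 ± 0.21 (adjusted p = 0.0004, limma) and in M2a by 0.89 ± 0.21 (adjusted p = 0.0074, limma). Eif2ak3 and Impact lost their M2a calls with the mean of all probe sets of a gene (-0.17 and 0.20), and Impact was at 0.16 in M1 and -0.17 in M2a with the hybridization covariate.

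**Figure D4:**
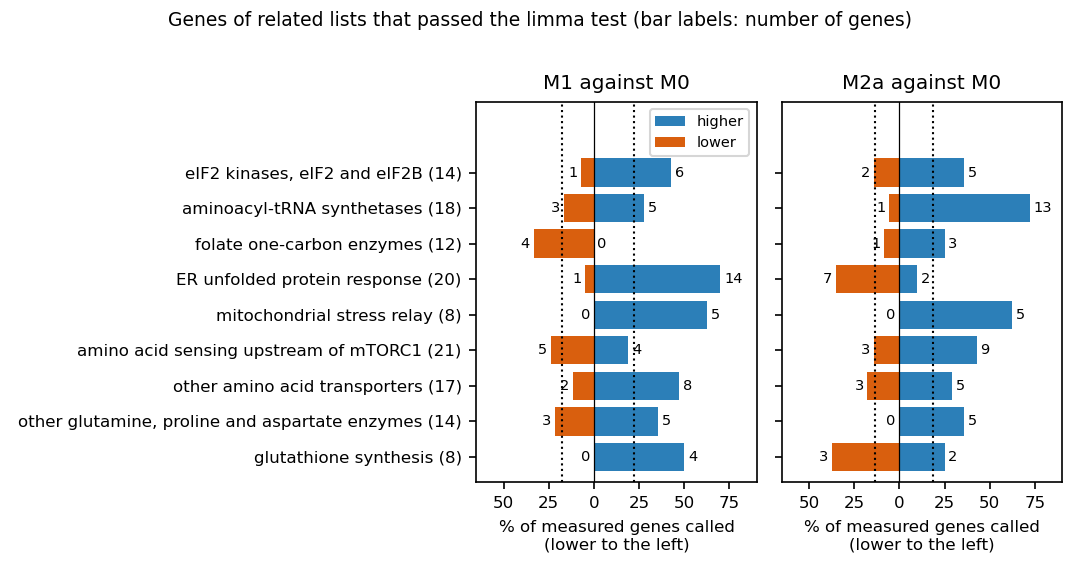
Share of the measured genes of each of 9 related lists (number measured in parentheses) that passed limma upward (blue, to the right) or downward (orange, to the left), in % on the horizontal axes; bar labels give numbers of genes. Dotted lines mark the shares of all 18193 genes, which are 22.1% and 17.6% in M1 and 18.6% and 13.3% in M2a. The longest bars are 14 of 20 genes of the endoplasmic reticulum list in M1 and 13 of 18 aminoacyl-tRNA synthetases in M2a.

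Transporters of amino acids outside the set included the largest differences of these lists. Slc7a2, the carrier of arginine and other cationic amino acids, rose by 5.19 ± 0.35 in M1 (adjusted p = 5.1e-07, limma) and by 3.88 ± 0.35 in M2a (adjusted p = 9.2e-06, limma). Slc38a6 rose in M1 by 1.64 ± 0.27 (adjusted p = 0.00051, limma), and Slc43a2, a carrier of large neutral amino acids, fell by 2.11 ± 0.20 in M2a (adjusted p = 1.4e-05, limma). Over all genes, 22.1% rose and 17.6% fell in M1, and 18.6% rose and 13.3% fell in M2a. Of the 17 transporters, 8 rose (47.1%) and 2 fell (11.8%) in M1, and 5 rose (29.4%) and 3 fell (17.6%) in M2a. The 2 that fell in M1 were 1 without M0 array 2 and 0 without any one of M1 arrays 1, 2 and 3. Among genes of amino acid sensing upstream of mTORC1, 4 of 21 rose (19%) and 5 fell (23.8%) in M1, and 9 rose (42.9%) and 3 fell (14.3%) in M2a. The share that rose in M1 and the share that fell in M2a were thus near those of all genes. The number that rose in M1 was 7 without M0 array 5, and the number that fell in M2a was 1 without M2a array 3. Rragd, a GTPase of that pathway, fell by 2.59 ± 0.38 in M1 (adjusted p = 0.00023, limma) and rose in M2a by 1.09 ± 0.38 (adjusted p = 0.047, limma). The latter was lost without any one of M0 array 4, M1 arrays 1, 2 and 3 or M2a arrays 1, 2 and 3 (0.93 to 1.19, adjusted p = 0.065 to 0.17). Sesn1, a relative of Sesn2, fell by 1.86 ± 0.23 in M1 (adjusted p = 6.5e-05, limma). Rraga, another GTPase of that pathway, rose in M2a by 1.28 ± 0.36 (adjusted p = 0.018, limma), which was lost without M2a array 2 or 3 (1.21 to 1.27, adjusted p = 0.059 to 0.069). With the hybridization covariate the M2a differences of Rragd and Rraga were -0.79 and -0.48, and the M1 call of Slc38a6 was lost (0.31). Under it, the 17 transporters gave 4 higher and 7 lower in M1 and 6 higher and 7 lower in M2a. The 21 sensing genes gave 3 higher and 10 lower in M1 and 4 higher and 7 lower in M2a.

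Of 12 other folate one-carbon enzymes, 4 fell (33.3%, beside 17.6% of all genes) and 0 rose (beside 22.1%) in M1 in limma, with 2 higher at an unadjusted p under 0.05. For M2a, 3 rose (25%, beside 18.6% of all genes) and 1 fell (8.33%, beside 13.3%). In M1, 1 rose without M0 array 4 and 4 without M0 array 5, and 3 rose with quantile normalization. In M2a, 1 rose without any one of M0 arrays 1 and 3 and M2a arrays 1, 2 and 3, and 2 fell without M0 array 1 or 5. Shmt1, the cytosolic counterpart of Shmt2, fell in both comparisons, by a difference of -1.95 ± 0.27 in M1 (adjusted p = 0.00013, limma) and -1.68 ± 0.27 in M2a (adjusted p = 0.00055, limma). With the hybridization covariate both Shmt1 calls were lost (-0.37 in M1 and -0.26 in M2a). The list then gave 1 higher and 8 lower in M1 and 2 higher and 4 lower in M2a. Mthfd2l, a relative of Mthfd2, fell by 2.01 ± 0.12 in M1 (adjusted p = 1.9e-07, limma), and Aldh1l1, the cytosolic counterpart of Aldh1l2, rose in M2a by 1.62 ± 0.15 (adjusted p = 8.9e-06, limma).

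Of 14 other enzymes of glutamine, proline and aspartate, 5 rose (35.7%, beside 22.1% of all genes) and 3 fell (21.4%, beside 17.6%) in M1. In M2a 5 rose (35.7%, beside 18.6% of all genes) and in limma 0 fell (beside 13.3%), also at an unadjusted p under 0.05, although 1 fell without M0 array 1. Glul, which makes glutamine, fell by 1.39 ± 0.17 in M1 (adjusted p = 5.9e-05, limma). Bcat2, an aminotransferase of branched-chain amino acids, rose by 0.95 ± 0.15 in M1 (adjusted p = 0.00036, limma) and by 1.27 ± 0.15 in M2a (adjusted p = 6.2e-05, limma). Got1, the cytosolic aspartate aminotransferase, rose in M2a by 1.03 ± 0.33 (adjusted p = 0.033, limma), which was lost without any one of M0 array 1 and M2a arrays 1, 2 and 3 (0.84 to 1.06, adjusted p = 0.056 to 0.11). With the hybridization covariate Got1 was called lower in M2a (-0.80, adjusted p = 0.0013, limma), and the M1 call of Bcat2 was lost (0.23). The list then gave 3 higher and 5 lower in M1 and 4 higher and 4 lower in M2a.

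Of 8 genes of glutathione handling, 4 rose in M1 (50%, beside 22.1% of all genes) and in limma 0 fell (beside 17.6%), also at an unadjusted p under 0.05. For M2a, 2 rose (25%, beside 18.6% of all genes) and 3 fell (37.5%, beside 13.3%), with 1 that rose without any one of M2a arrays 1, 2 and 3. Ggct rose in M1 by 3.15 ± 0.25 (adjusted p = 1.8e-06, limma), and Gsr, the glutathione reductase, fell by 2.55 ± 0.14 in M2a (adjusted p = 1.5e-07, limma). Chac2, a relative of Chac1, rose by 1.10 ± 0.36 in M1 (adjusted p = 0.03, limma) and by 1.21 ± 0.36 in M2a (adjusted p = 0.023, limma). The M1 call was lost without any one of M0 array 1 and M1 arrays 1, 2 and 3 (0.97 to 1.17, adjusted p = 0.058 to 0.1), and the M2a call without any one of M2a arrays 1, 2 and 3 (1.10 to 1.28, adjusted p = 0.057 to 0.091). With the hybridization covariate Chac2 was called lower in M1 (-0.94, adjusted p = 0.037, limma) and was at -0.62 in M2a. The list then gave 2 higher and 2 lower in M1 and 1 higher and 5 lower in M2a.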

How the data were processed

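The authors deposited log2 values of 45101 probe sets for 11 arrays. The submitters' processing notes name Partek without a version. How background was corrected, probes were summarised and arrays were normalized is not given in the sources used here. Probe sets were named through the platform annotation: 34945 had 1 symbol, and 932 with several symbols were left out. Of the 34945, 34741 took the RefSeq symbol of their Entrez identifier, whether or not it differed from the annotated symbol. Each of 18193 genes took its probe set with the highest mean. Groups were compared with limma 3.58.1 in R 4.3.3 (lmFit, eBayes, a mean per group, all 11 arrays), adjusted by Benjamini-Hochberg over 18193 genes at 0.05. The procedure was tested on simulated data with independent noise and, for each gene, the same spread in all groups. The wider spread of M0 and the tie between the means of its arrays were not simulated, so that test does not bear on them. The genes of the set and the lists were chosen with earlier results of these data known. Every array is given for genes at least 2-fold apart between any 2 groups without overlap, the other genes by range, and of each list up to 2 called genes with the largest difference per comparison. The number of arrays limits the precision. Alternatives covered probe sets, normalization, a filter, the fit, the M0 arrays, control covariates, a replicate block and leaving out each array. Promoters came from RefSeq, GRCm38.p6.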

Additional observations from a re-analysis of the deposited data

How the results depend on the processing

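In the 23 alternative settings, the count of genes of the set at least 2-fold higher in M2a than in M0 (15) ran from 13 to 17, though not over the same genes with the hybridization covariate (14), and the count lower stayed at 1. Not every setting held 35 genes. Without _x_at and _s_at probe sets there were 34, since Phgdh then had no value, and 28 passed the filter on low values. Leaving out each array in turn gave 14 to 17 and 1, 5 to 9 genes that rose and 13 to 17 that fell in M1, 18 to 21 higher and 2 lower in M2a against M1, and, over the 9 lists, 39 to 64 higher and 16 to 21 lower in M1 (51 and 19 in the report) and 39 to 56 higher and 15 to 26 lower in M2a (49 and 20). Without any one of M1 arrays 1, 2 and 3, 5 genes of the set rose. With the hybridization controls as a covariate, 5 genes of the set were higher and 10 lower in M1, and the lists gave 19 higher and 52 lower in M1 and 26 and 51 in M2a. No share of all genes was counted under that covariate, so none stands beside these counts. The signs then turned in M1 for Atf3 (-1.06), Xpot (-0.72), Hspd1 (-0.20), Chac2 (-0.94) and Sesn2 (0.39), and in M2a for Slc1a4 (0.11), Impact (-0.17), Rraga (-0.48), Rragd (-0.79), Got1 (-0.80) and Chac2 (-0.62). Atf3, Xpot and Chac2 in M1 and Got1 in M2a passed limma in that direction. That covariate does not overlap between M0 and the other groups, so it and the groups can hardly be told apart. When the actin 5'-3' signal difference was a covariate, 33 list genes were higher in M1 and Chac2 turned to -0.08. Quantile normalization gave 32 lower list genes in M1, and leaving out M0 arrays 1 and 4 gave 30 in M1 and 35 in M2a. Without _x_at and _s_at probe sets, the M1 differences of Cbs and Aldh18a1 were -0.12 and 0.01. The cause of these changes was not tested. The deviations of arrays with the same replicate number from their group means correlated at -0.04 to 0.25. With so few arrays in a group, these values cannot settle whether the numbers pair the samples. A replicate block gave 7 higher and 15 lower genes of the set in M1, 15 higher in M2a, and list counts of 56 and 20 in M1 and 56 and 26 in M2a. The files hold no detection calls, so signals near the background, such as those of Cth, Cbs and Aldh1l2, cannot be marked as such. Of the 35 M0 groups tested for an array far from the others, 0 had one. That test could not have found one, since the tie between the means of the M0 arrays bounds how far a single array can lie from the rest. The bound falls short of the critical value, so nothing is drawn from this count.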
